A study of Mus musculus with 20 samples.

Results

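The thioredoxin and peroxiredoxin system was examined through 10 genes, Txn1, Txnip, Txnrd1, Txnrd2, Srxn1, Prdx1, Prdx2, Prdx3, Prdx5 and Prdx6, out of 39179 annotated genes counted by RNA sequencing. The genes were taken from a list of system components and matched to the counted Ensembl identifiers by mouse symbol, and all 10 were found. The cells were an immortalised epithelial line from C57BL/6J mouse kidney, grown in medium with 10% serum and 0.05 mg/mL uridine. Fh1 encodes fumarate hydratase, the enzyme of the tricarboxylic acid cycle that turns fumarate into malate. Rec cells are labelled as wild type with Fh1 re-expressed, clone1 and clone19 are labelled as Fh1 deletion and named as single clones, and Fh1_fl_fl cells, named for the floxed alleles, are labelled as Fh1 wild type. Each group had 5 libraries. The labels state neither the clone from which Rec was made, nor the promoter driving the re-expressed gene, nor whether the 5 libraries of a group were grown as separate cultures, so the p-values measure the spread between these libraries, which may be technical.

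Peroxiredoxins reduce hydrogen peroxide and organic peroxides with a reactive cysteine, which is oxidised in the process. For the typical peroxiredoxins, thioredoxin reduces that cysteine again, and thioredoxin reductase, a selenoprotein that draws on NADPH, reduces thioredoxin. Sulfiredoxin rescues peroxiredoxins whose cysteine has been over-oxidised, and Txnip, an alpha-arrestin, binds reduced thioredoxin and restrains glucose uptake. The transcription factor NRF2, which is held back by KEAP1, drives several of these genes through antioxidant response elements, and fumarate is known to modify KEAP1 covalently. Txnip is known as a target of the glucose-responsive MondoA and ChREBP factors, which act through a pair of E-box-like sites.

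The promoters of 4 members are shown because a match to the letters of these elements was found in them. Each is the 250 bases before the annotated start in RefSeq (GRCm38.p6), read 5′ to 3′ on the gene's strand. Both strands were searched, and capitals mark the match. Srxn1 is at chr2:152105274-152105523 (plus strand), Prdx1 at chr4:116685349-116685598 (plus strand), Txnip at chr3:96557707-96557956 (plus strand), and the window of Txnrd1 that holds a match, 1 of 3 for that gene, at chr10:82858956-82859205 (plus strand).
Srxn1: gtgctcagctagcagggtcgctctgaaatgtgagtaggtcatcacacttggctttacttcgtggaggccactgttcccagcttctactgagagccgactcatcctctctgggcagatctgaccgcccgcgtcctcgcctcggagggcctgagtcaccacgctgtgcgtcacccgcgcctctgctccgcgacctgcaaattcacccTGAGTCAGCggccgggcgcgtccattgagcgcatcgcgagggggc
Prdx1: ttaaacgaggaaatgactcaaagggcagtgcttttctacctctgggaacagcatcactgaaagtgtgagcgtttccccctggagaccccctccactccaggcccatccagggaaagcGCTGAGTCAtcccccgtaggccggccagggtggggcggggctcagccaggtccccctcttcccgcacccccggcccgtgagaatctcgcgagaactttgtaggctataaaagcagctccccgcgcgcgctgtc
Txnrd1: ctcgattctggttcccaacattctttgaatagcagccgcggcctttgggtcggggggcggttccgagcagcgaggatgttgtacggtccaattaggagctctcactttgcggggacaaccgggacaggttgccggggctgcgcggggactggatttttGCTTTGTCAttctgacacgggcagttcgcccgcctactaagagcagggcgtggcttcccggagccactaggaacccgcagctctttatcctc
Txnip: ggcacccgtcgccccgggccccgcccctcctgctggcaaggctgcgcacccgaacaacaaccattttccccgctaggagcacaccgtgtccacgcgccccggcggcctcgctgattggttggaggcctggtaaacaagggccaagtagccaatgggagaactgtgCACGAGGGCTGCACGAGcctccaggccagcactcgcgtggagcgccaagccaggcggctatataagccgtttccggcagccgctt

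The antioxidant response element core, TGACNNNGC, was found in the windows of Prdx1 (TGACTCAGC on the minus strand, 133 to 125 bases before the start) and Txnrd1 (TGACAAAGC on the minus strand, 92 to 84 bases before the start). It was present in 10.2% of all 32851 RefSeq windows of this length. A variant with a fixed TCAGC end, TGANTCAGC, was searched after the sequences had been seen. It matched Srxn1 (TGAGTCAGC, 45 to 37 bases before the start) and the same bases of Prdx1, and was present in 1.02% of all windows. The carbohydrate response element, 2 copies of CACGNG with 5 bases between them, was found in Txnip (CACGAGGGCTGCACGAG, 85 to 69 bases before the start) and in 0.0457% of all windows. The windows of Txn1, Txnrd2, Prdx2, Prdx3 and Prdx5 held none of these letters. A match is a description of the sequence, and binding was not measured.

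Gene counts per library ran from 5988447 to 18972176 (median 10485784). In clone19 replicate 3, Gm42418, a locus known to collect ribosomal RNA reads, took 8.202% of the counts, and 0.2121 to 0.4631% in the other libraries, so results that involve clone19 are also given without it where they change. Levels are given as CPM, the count relative to the scaled library total. The whole-gene count of Fh1 was 71.3 ± 7.08 CPM in Rec, 112 ± 5.93 CPM in clone1, 84.7 ± 7.31 CPM in clone19 and 92.3 ± 6.16 CPM in Fh1_fl_fl (mean ± SD, n = 5). It was lowest in Rec, the group labelled as re-expressing Fh1, and highest in clone1, a group labelled as deleted. The labels name no deleted exon and no counts per exon were used, so the whole-gene level was not a test of these labels. The summed level of 9 kidney epithelial markers ran from 4368 to 4816 CPM in Rec, 2722 to 3360 in clone1, 2138 to 2449 in clone19 and 3520 to 4072 in Fh1_fl_fl, with no marker at 0. Single markers moved in both directions, so the sum does not rank the groups as more or less epithelial. Krt19 averaged 681 CPM in Rec, 638 in clone1, 457 in clone19 and 348 in Fh1_fl_fl. Pax2 averaged 95.9 CPM in Rec, 45.4 in clone1, 42.0 in clone19 and 272 in Fh1_fl_fl. The summed levels of leukocyte, endothelial and fibroblast or pericyte markers reached at most 20.8, 9.79 and 15.2 CPM in any library, each highest in clone19, and Pdgfrb was at 0 in all libraries. Their part in the results was not tested, and in such bulk samples fewer cells of a type and less RNA per cell cannot be told apart.

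Against Fh1_fl_fl, the system moved in both directions in every other group. Srxn1, Txnrd1 and Prdx6 transcripts rose in Rec, clone1 and clone19, while those of Txnip and Prdx2 fell. The fall of Prdx2 in Rec was small and was lost in 10 of 26 alternatives. Txn1 rose in Rec and fell in clone1, Prdx3 rose in Rec and clone1, Prdx1 rose in clone1 and fell in clone19, and Prdx5 fell in Rec and clone1. A gene is called changed at an adjusted p under 0.05 over 12671 tested genes, and over 2-fold where the test against that bound passes as well. Of the 10 members 9 passed the count filter, and Txnrd2 did not.

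In clone1 against Fh1_fl_fl, 5 members rose and 4 fell, where 78.6% of all tested genes changed, 38% upward and 40.5% downward. Srxn1, Txnrd1 and Prdx6 were over 2-fold, as were 21.7% of all tested genes. The 5 libraries of each group did not overlap for 8 members, and for 65.5% of all tested genes. The median log2 fold change of the members was 0.45, and -0.03 over all tested genes. In clone19 against Fh1_fl_fl, 3 members rose and 3 fell, where 72.9% of all tested genes changed, 36.8% upward and 36.1% downward. Txnrd1 was over 2-fold higher and Txnip over 2-fold lower, as were 15.5% of all tested genes in either direction, and the groups did not overlap for 5 members and for 59% of all tested genes. The members' median was -0.03 beside 0.0036 for all genes. In Rec against Fh1_fl_fl, 5 members rose and 3 fell, where 70.8% of all tested genes changed, 33.4% upward and 37.4% downward. Txnip was over 2-fold lower, and 11.1% of all tested genes were over 2-fold. The groups did not overlap for 5 members and for 58.3% of all tested genes. The members' median was 0.33, and -0.03 over all genes. With 9 tested members, chosen with earlier results known, nothing particular to the system is read from these counts, and the 3 comparisons share the Fh1_fl_fl libraries. Scaled to plain library totals, 36.6% of the changed genes were higher in Rec, in place of 47.2%.

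**Figure D1:**
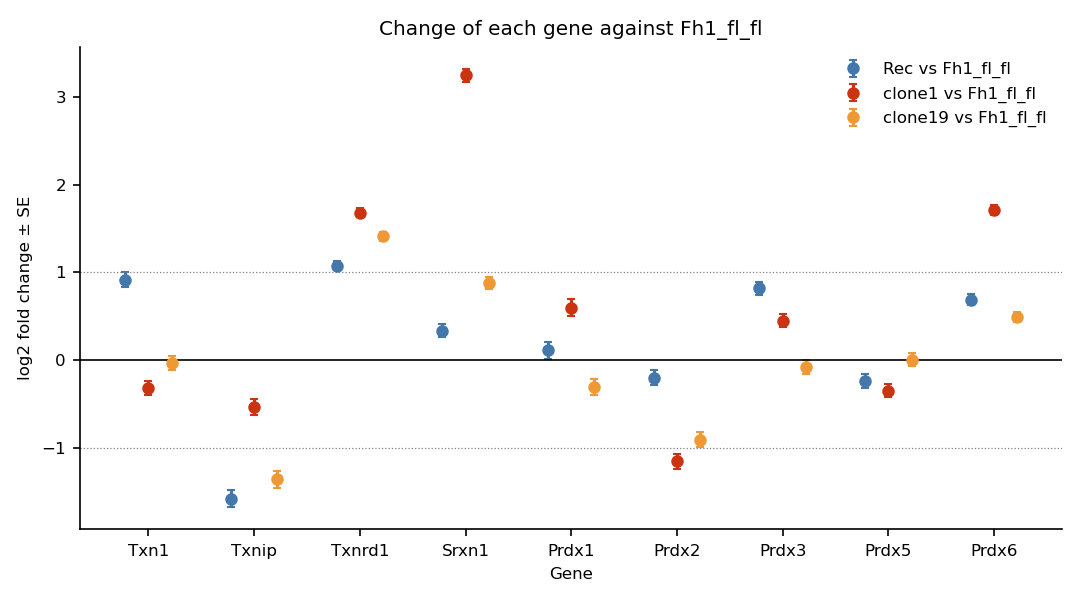
The log2 fold change of each tested member (y axis, bars are SE) for Rec, clone1 and clone19 against Fh1_fl_fl, with dotted lines at 2-fold. Srxn1 in clone1 stands at 3.25 and Txnip in Rec at -1.58, and Txnrd1 lies above 1 in all 3 comparisons.

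Txn1 transcripts were highest in Rec. Txn1 (ENSMUSG00000028367, GRCm38 chromosome 4, 57943373 to 57956411, minus strand) encodes cytosolic thioredoxin, the protein disulphide reductase at the centre of the system. Its level in replicates 1 to 5 was 481, 611, 554, 504 and 499.6 CPM in Rec, 272, 212, 207, 214 and 219.5 CPM in clone1, 258, 330.5, 272, 278 and 232 CPM in clone19, and 257, 283, 302, 293 and 268 CPM in Fh1_fl_fl. All Rec libraries lay above every library of the other groups, which overlapped one another. On the log2 scale, Rec differed from Fh1_fl_fl by 0.92 (SE 0.08, adjusted p = 2.85e-10), clone1 by -0.32 (SE 0.09, adjusted p = 0.00143) and clone19 by -0.03 (SE 0.09, adjusted p = 0.734). Ribonucleotide reductase is the classical recipient of thioredoxin electrons. Its subunit gene Rrm2, which cells express mainly in S phase, was also highest in Rec, at 571 ± 17.1 CPM, with 47.0 ± 4.42 in clone1, 73.4 ± 4.49 in clone19 and 147 ± 9.42 in Fh1_fl_fl. Its log2 fold changes against Fh1_fl_fl were 1.95 in Rec, -1.65 in clone1 and -1.003 in clone19 (adjusted p = 7.66e-20, 1.85e-18 and 8.93e-14). Rrm1, another subunit gene of this enzyme, averaged 401 CPM in Rec, 237 in clone1, 234 in clone19 and 221 in Fh1_fl_fl. Against Fh1_fl_fl, Rrm1 was called higher in Rec and was called in neither clone. The further subunit gene Rrm2b did not share the high Rec level, at 41.0 CPM in Rec, 42.7 in clone1, 48.3 in clone19 and 41.0 in Fh1_fl_fl. Rrm2b was called higher in clone19 and was called in neither Rec nor clone1.

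Txnip, the binding partner of thioredoxin, was lower in all 3 groups than in Fh1_fl_fl. Txnip (ENSMUSG00000038393, chromosome 3, 96557957 to 96561883, plus strand) had 21.7, 15.8, 19.3, 18.0 and 13.2 CPM in Rec, 39.6, 36.2, 36.5, 32.5 and 35.0 CPM in clone1, 22.5, 20.6, 21.1, 21.8 and 16.1 CPM in clone19, and 52.0, 52.5, 56.5, 50.8 and 48.9 CPM in Fh1_fl_fl. No library of Rec, clone1 or clone19 reached the lowest Fh1_fl_fl library, and Rec and clone19 overlapped. Set against Fh1_fl_fl on the log2 scale, Rec differed by -1.58 (SE 0.10, adjusted p = 1.12e-13), clone1 by -0.53 (SE 0.09, adjusted p = 1.14e-05) and clone19 by -1.36 (SE 0.10, adjusted p = 3.2e-12). The antisense gene Gm15441 shares 606 exon bases with Txnip on the opposite strand. It had 59 counts over all 20 libraries, and because the strand setting of the counting is not given in the sources used here, reads of such a pair cannot be told apart.

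Thioredoxin reductase was well expressed as Txnrd1 and hardly detected as Txnrd2, and Txnrd1 was higher in all 3 groups than in Fh1_fl_fl. Txnrd1 (ENSMUSG00000020250, chromosome 10, 82833951 to 82897712, plus strand), the cytosolic reductase, had 439.8, 389, 387, 390.3 and 427 CPM in Rec and 637, 615, 610.1, 619.5 and 615 CPM in clone1. The clone19 libraries had 520.4, 509, 488, 510.4 and 539.8 CPM, and those of Fh1_fl_fl 189.8, 208, 184, 187 and 198 CPM. No 2 groups overlapped, and the order was clone1, clone19, Rec and Fh1_fl_fl from high to low. As log2 fold changes, Rec differed from Fh1_fl_fl by 1.07 (SE 0.05, adjusted p = 4.72e-16), clone1 by 1.68 (SE 0.05, adjusted p = 1.41e-20) and clone19 by 1.41 (SE 0.05, adjusted p = 1.23e-18). The Rec estimate exceeded 2-fold but did not pass the test against that bound (adjusted p = 0.187).

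Txnrd2 (ENSMUSG00000075704, chromosome 16, 18426384 to 18479073, plus strand), the mitochondrial reductase, had 10 counts in total in Rec, 14 in clone1, 22 in clone19 and 11 in Fh1_fl_fl. Single libraries held 0 to 4 counts in Rec, 1 to 5 in clone1, 1 to 10 in clone19 and 1 to 3 in Fh1_fl_fl. The limit that a count of 0 allows was 0.158 to 0.501 CPM in single libraries, and most Txnrd2 values lay near or under it. No difference was tested. Reads that overlap several features stand in a separate line of the count tables and enter no gene, so a level this low is uncertain. Txn2, the mitochondrial thioredoxin that Txnrd2 serves, was well counted, at 160.5 ± 13.0 CPM in Rec, 158 ± 9.11 in clone1, 116 ± 7.81 in clone19 and 83.3 ± 2.47 in Fh1_fl_fl.

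**Figure D2:**
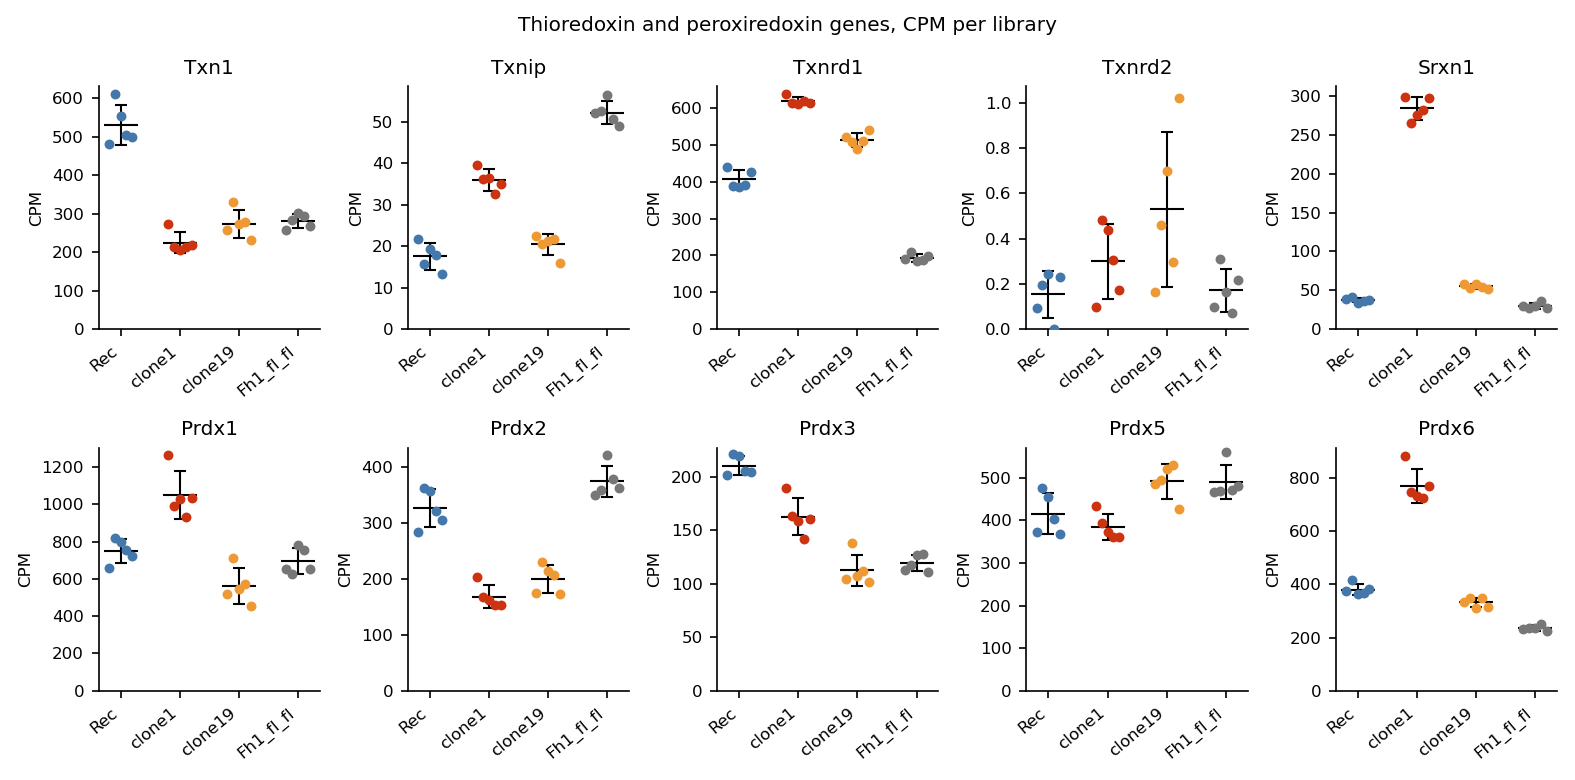
CPM of each of the 10 members (y axis, linear from 0, a separate scale per gene) in the 5 libraries of Rec, clone1, clone19 and Fh1_fl_fl, with points for libraries and bars for mean ± SD. Srxn1 and Prdx6 stand high in clone1, Txn1 in Rec and Txnip in Fh1_fl_fl, and Txnrd2 stays at or below 1.02 CPM.

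Srxn1 showed the widest difference of the system. Srxn1 (ENSMUSG00000032802, chromosome 2, 152105516 to 152111376, plus strand) encodes sulfiredoxin, the repair enzyme for over-oxidised peroxiredoxins, and its promoter is among those printed above. It had 39.3, 41.0, 34.2, 36.8 and 37.5 CPM in Rec, 299, 266, 275, 282 and 298 CPM in clone1, 58.3, 53.4, 58.6, 54.5 and 51.4 CPM in clone19, and 29.5, 27.6, 29.96, 35.6 and 26.8 CPM in Fh1_fl_fl. The clone1 libraries lay far above all others, those of clone19 lay above Rec and Fh1_fl_fl, and Rec and Fh1_fl_fl overlapped. Against Fh1_fl_fl the level was 1.26 times as high in Rec, 9.48 times in clone1 and 1.84 times in clone19. The log2 fold changes were 0.33 (SE 0.07, adjusted p = 0.000202), 3.25 (SE 0.07, adjusted p = 1.73e-23) and 0.88 (SE 0.07, adjusted p = 2.63e-11).

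The cytosolic peroxiredoxins went separate ways. Prdx6 (ENSMUSG00000026701, chromosome 1, 161240112 to 161251219, minus strand) is the 1-Cys peroxiredoxin, which also has phospholipase activity and is reduced through glutathione. It had 374, 417, 363, 366 and 384 CPM in Rec, 883, 749.8, 734, 725 and 772 CPM in clone1, 336, 350.1, 311, 349 and 316 CPM in clone19, and 232, 236, 237, 251 and 224 CPM in Fh1_fl_fl. No 2 groups overlapped. It rose against Fh1_fl_fl by 0.69 in Rec, 1.71 in clone1 and 0.49 in clone19 on the log2 scale (SE 0.06 each, adjusted p = 6.74e-11, 2e-19 and 3.43e-08). Its copies in the genome drew few reads, with 19 counts for Prdx6b and 0 for Prdx6-ps2 over all libraries, and reads with several equal alignments are counted for none of them.

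Prdx1 (ENSMUSG00000028691, chromosome 4, 116685544 to 116700822, plus strand), a cytosolic peroxiredoxin of the typical 2-Cys class, had 656, 818, 796, 755 and 723 CPM in Rec, 1264, 989, 1028, 932 and 1036 CPM in clone1, 518, 713, 545, 574 and 454 CPM in clone19, and 654, 626, 783, 754 and 650.5 CPM in Fh1_fl_fl. The clone1 libraries lay above all others, and the other 3 groups overlapped. In log2 terms Rec differed from Fh1_fl_fl by 0.11 (SE 0.10, adjusted p = 0.299), clone1 by 0.60 (SE 0.10, adjusted p = 2.88e-06) and clone19 by -0.31 (SE 0.10, adjusted p = 0.006).

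Prdx2 (ENSMUSG00000005161, chromosome 8, 84969587 to 84974834, plus strand), the close relative of Prdx1 that is abundant in red blood cells, ran the other way in clone1. It had 283, 362, 356, 321 and 305 CPM in Rec, 204, 168, 162, 153 and 152 CPM in clone1, 175, 230.3, 213, 206 and 173 CPM in clone19, and 349.8, 357, 420.4, 379 and 362 CPM in Fh1_fl_fl. All libraries of both clones lay below all those of Rec and Fh1_fl_fl. Log2 fold changes against Fh1_fl_fl were -1.15 for clone1 (SE 0.09, adjusted p = 3.04e-12) and -0.91 for clone19 (SE 0.09, adjusted p = 5.57e-10). That of Rec was -0.20 (SE 0.09, adjusted p = 0.0404), and the Rec call was lost in 10 of 26 alternatives, including without clone19 replicate 3 (adjusted p = 0.0627). Prdx2 shares 173 exon bases with Junb and 177 with Rnaseh2a, both well counted genes on the opposite strand, so its level carries the uncertainty of an unstated strand setting.

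Of the peroxiredoxins found in mitochondria, Prdx3 rose in Rec and clone1 and Prdx5 fell in both. Prdx3 (ENSMUSG00000024997, chromosome 19, 60864051 to 60874556, minus strand), which is confined to mitochondria and is reduced by Txn2, had 202, 221, 219.6, 205 and 205 CPM in Rec, 189.9, 163, 158, 142 and 161 CPM in clone1, 105, 138, 108, 112 and 102 CPM in clone19, and 113, 118, 127, 128 and 111 CPM in Fh1_fl_fl. The order was Rec, clone1 and then Fh1_fl_fl with clone19, and the last pair overlapped. For Prdx3, on the log2 scale, Rec differed from Fh1_fl_fl by 0.82 (SE 0.08, adjusted p = 3.02e-10), clone1 by 0.45 (SE 0.08, adjusted p = 6.88e-06) and clone19 by -0.08 (SE 0.08, adjusted p = 0.348). Prdx5 (ENSMUSG00000024953, chromosome 19, 6906697 to 6910106, minus strand), found in mitochondria, peroxisomes and cytosol, ranged from 369 to 477 CPM in Rec, 361 to 435 in clone1, 427 to 531 in clone19 and 467 to 561 in Fh1_fl_fl. For Prdx5, Rec differed from Fh1_fl_fl in log2 terms by -0.24 (SE 0.08, adjusted p = 0.00738), clone1 by -0.35 (SE 0.08, adjusted p = 0.000185) and clone19 by 0.01 (SE 0.08, adjusted p = 0.948). The Rec call was lost without Fh1_fl_fl replicate 3, the library highest in that group (log2 fold change -0.17, adjusted p = 0.0539). Prdx5 shares 409 exon bases with Trmt112 on the opposite strand.

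Set against each other per kilobase of exon (RPKM), the peroxiredoxin transcripts changed in make-up more than in sum. The lengths are the merged exons of all annotated transcripts of a gene, and the shares and the sum depend on them. Prdx4, the peroxiredoxin of the endoplasmic reticulum, was included to complete the family. Summed Prdx1 to Prdx6 levels were 790.3 ± 62.5 RPKM in Rec, 874 ± 87.9 in clone1, 671 ± 69.0 in clone19 and 738 ± 54.1 in Fh1_fl_fl (mean ± SD, n = 5). Prdx1 made up 31.2 ± 0.69% of the sum in Rec, 39.4 ± 1.03% in clone1, 27.4 ± 1.97% in clone19 and 30.9 ± 1.21% in Fh1_fl_fl. Prdx6 held 10.1 ± 0.72% in Rec, 18.4 ± 0.47% in clone1, 10.4 ± 0.83% in clone19 and 6.68 ± 0.41% in Fh1_fl_fl. Both shares were highest in clone1 and did not overlap with another group there. Prdx2 held 13.5 ± 0.38% in Rec, 6.29 ± 0.26% in clone1, 9.74 ± 0.46% in clone19 and 16.6 ± 0.24% in Fh1_fl_fl, in 4 separate ranges. Prdx3 took 18.1 ± 0.72% in Rec, 12.6 ± 0.32% in clone1, 11.4 ± 0.68% in clone19 and 11.0 ± 0.44% in Fh1_fl_fl. Prdx5 took 24.6 ± 1.06% in Rec, 20.6 ± 0.85% in clone1, 34.4 ± 2.32% in clone19 and 31.1 ± 1.14% in Fh1_fl_fl. Prdx4 was the smallest share in every group and largest in clone19, at 6.74 ± 0.42%, with 2.65 ± 0.15% in Rec, 2.60 ± 0.21% in clone1 and 3.82 ± 0.21% in Fh1_fl_fl.

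**Figure D3:**
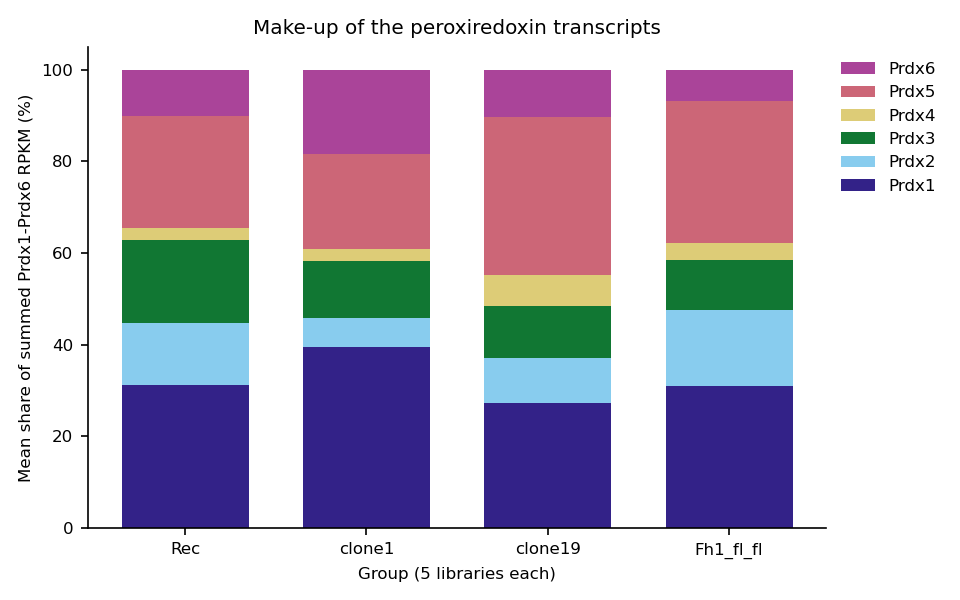
Mean share of each peroxiredoxin in the summed RPKM of Prdx1 to Prdx6 (y axis, percent) in Rec, clone1, clone19 and Fh1_fl_fl, 5 libraries each. The Prdx6 band is widest in clone1 (18.4%), the Prdx2 band in Fh1_fl_fl (16.6%) and the Prdx3 band in Rec (18.1%).

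The summed level was tested together with 2 ratios, in 18 comparisons by two-sided exact permutation tests with Benjamini-Hochberg adjustment; the smallest raw p that 5 against 5 allows is 0.00794. The sum was 1.18 times as high in clone1 as in Fh1_fl_fl (exact permutation, adjusted p = 0.022, lost with plain library totals at 0.235). It was 0.907 times in clone19 (exact permutation, adjusted p = 0.134) and 1.07 times in Rec (exact permutation, adjusted p = 0.159), which did not pass. The clone19 difference passed with plain library totals (exact permutation, adjusted p = 0.0119) and without clone19 replicate 2 (exact permutation, adjusted p = 0.0286). The Txnip to Txn1 ratio was 0.0113 ± 0.0026 in Rec, 0.0541 ± 0.0043 in clone1, 0.0253 ± 0.0032 in clone19 and 0.0627 ± 0.0036 in Fh1_fl_fl. Relative to Fh1_fl_fl it was 0.177 times as high in Rec and 0.401 times in clone19 (exact permutation, adjusted p = 0.013 each), and 0.863 times in clone1 (exact permutation, adjusted p = 0.022, lost without Fh1_fl_fl replicate 1 at 0.051). Rec thus held the least Txnip transcript per Txn1 transcript, with no overlap with another group. The Srxn1 to Prdx1 ratio was 0.0547 ± 0.0066 in Rec, 0.294 ± 0.027 in clone1, 0.109 ± 0.017 in clone19 and 0.0466 ± 0.0038 in Fh1_fl_fl. It was 6.31 times as high in clone1 and 2.31 times in clone19 as in Fh1_fl_fl (exact permutation, adjusted p = 0.013 each). In Rec it was 1.17 times as high (exact permutation, adjusted p = 0.0476), a call that 10 of the 20 single-library omissions ended.

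**Figure D4:**
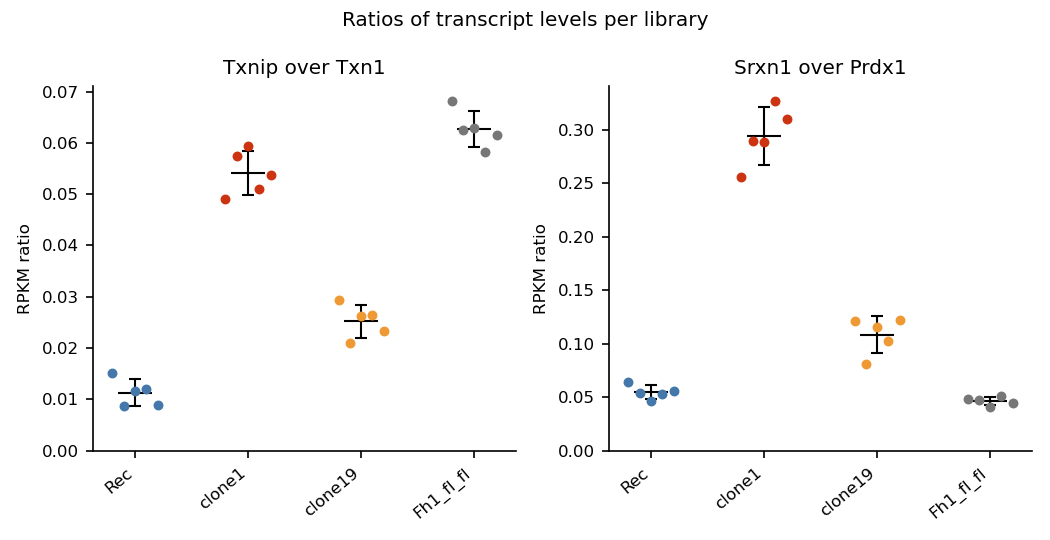
Ratios of RPKM per library (y axis, linear from 0), Txnip over Txn1 and Srxn1 over Prdx1, with points for libraries and bars for mean ± SD of 5 libraries per group. Txnip over Txn1 is lowest in Rec (0.0113), and Srxn1 over Prdx1 is highest in clone1 (0.294).

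The comparisons of Rec with each clone ask which of these levels differ between cells labelled as re-expressing Fh1 and cells labelled as deleted. Against clone1, 3 members were higher in Rec (Txn1, Prdx2 and Prdx3) and 5 were lower (Txnip, Txnrd1, Srxn1, Prdx1 and Prdx6), where 77.9% of all tested genes changed, 39.7% upward and 38.1% downward. The groups did not overlap for 8 members and for 62.9% of all tested genes. Txn1 was over 2-fold higher, with a log2 fold change of 1.24 (adjusted p = 4.62e-13), and Srxn1 over 2-fold lower, at -2.91 (adjusted p = 1.22e-22), as were 22% of all tested genes in either direction. By DESeq2, Txn1 did not pass the test against 2-fold (adjusted p = 0.143). Prdx6 fell by 1.02 and Txnip by 1.05 on the log2 scale (adjusted p = 9.63e-15 and 4.87e-10). Against clone19, 5 members were higher in Rec (Txn1, Prdx1, Prdx2, Prdx3 and Prdx6) and 3 were lower (Txnrd1, Srxn1 and Prdx5), where 73.8% of all tested genes changed, 35.8% upward and 38% downward. The groups did not overlap for 6 members and for 57.5% of all tested genes. By edgeR 0 members were over 2-fold, also at an unadjusted p under 0.05 and by DESeq2, while 15.5% of all tested genes were. The largest differences were those of Txn1 at 0.95, Prdx3 at 0.90 and Prdx2 at 0.71 (adjusted p = 1.34e-10, 5.32e-11 and 5.01e-08).

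Set side by side, the mean Rec level lay between that of Fh1_fl_fl and those of both clones for Txnrd1, Srxn1 and Prdx2. The Rec and Fh1_fl_fl libraries overlapped for Srxn1 and Prdx2, and the Prdx2 difference between them was lost in 10 of 26 alternatives. How many of all tested genes had such a Rec level was not counted. For Txnrd1 the Rec mean of 407 CPM compares with 619 in clone1, 514 in clone19 and 193 in Fh1_fl_fl. Prdx2 averaged 326 CPM in Rec, 168 in clone1, 199 in clone19 and 374 in Fh1_fl_fl. For Txn1 and Prdx3, Rec lay above all 3 other groups. Txnip was lowest in Rec, although its difference from clone19 did not pass (log2 fold change -0.22, adjusted p = 0.0742).

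The clones, which carry the same genotype label, differed from each other in all 9 tested members, where 65.1% of all tested genes changed between them, 31.6% higher in clone1 and 33.5% lower. The clones did not overlap for 6 members and for 45.3% of all tested genes. Of the members, 6 were higher in clone1 than in clone19 and 3 (Txn1, Prdx2 and Prdx5) were lower. Srxn1 was 5.16 times and Prdx6 2.32 times as high in clone1 (adjusted p = 2.3e-20 and 9.2e-16), and both were over 2-fold, as were 9.58% of all tested genes. Prdx1 and Txnip followed with log2 fold changes of 0.90 and 0.83 (adjusted p = 6.24e-09 and 1.18e-07). The members' median absolute log2 fold change was 0.53, and 0.38 over all tested genes. Without clone19 replicate 3, 8 members differed, and Prdx2 no longer did (log2 fold change -0.20, adjusted p = 0.0697).

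Genes whose group means ran most like those of Srxn1 and Txnip were found among 9210 genes with a mean of at least 10 CPM, by the root mean square difference of log2 levels centred over the 4 groups. Nearest to Srxn1 were Tspan12 (0.14), Id1 (0.16), Cbr1 (0.19), Btc (0.21) and Fer1l6 (0.23). Cbr1, a carbonyl reductase, had 13.2 CPM in Rec, 102 in clone1, 27.0 in clone19 and 11.5 in Fh1_fl_fl. Nearest to Txnip were Narf (0.05), Fam102a (0.09), Cyba (0.09), Wdr81 (0.12) and Irgm1 (0.12). Cyba, a membrane subunit of the superoxide-forming NADPH oxidases, had 21.4 CPM in Rec, 45.1 in clone1, 25.01 in clone19 and 55.2 in Fh1_fl_fl. The likeness is a description over 4 group means.

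The other genes of the pathway were followed in 10 further lists. Their counts stand beside 33.4% of all tested genes higher and 37.4% lower in Rec, 38% higher and 40.5% lower in clone1, and 36.8% higher and 36.1% lower in clone19. Among other thioredoxin and peroxiredoxin genes, 6 of 9 were tested, and 5 rose and 1 fell in clone1 against Fh1_fl_fl, 4 rose in clone19, and 4 rose and 2 fell in Rec. Txnrd3, the reductase known for its role in sperm, was over 2-fold in clone1, at 34.0 ± 1.69 CPM in Rec, 63.1 ± 3.25 in clone1, 28.9 ± 3.001 in clone19 and 26.5 ± 1.11 in Fh1_fl_fl. The parallel glutaredoxins, which draw on glutathione, had 2 of 4 higher and 2 lower in clone1, 2 higher and 1 lower in clone19, and 3 higher and 1 lower in Rec. Glrx, the cytosolic glutaredoxin, had 6.11 ± 1.05 CPM in Rec, 30.1 ± 2.63 in clone1, 10.3 ± 1.17 in clone19 and 4.86 ± 0.62 in Fh1_fl_fl, with a log2 fold change of 2.65 in clone1 (adjusted p = 1.19e-17). Of the 3 tested methionine sulfoxide reductases, which thioredoxin also reduces, 1 rose and 1 fell in each group, and Msrb3 was over 2-fold lower in clone19, at 12.7 ± 1.17 CPM in Rec, 21.9 ± 1.78 in clone1, 7.44 ± 1.41 in clone19 and 28.7 ± 1.84 in Fh1_fl_fl. Of the 3 sestrins, 1 was higher and 1 lower in both Rec and clone19, and 1 fell in clone1.

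**Figure D5:**
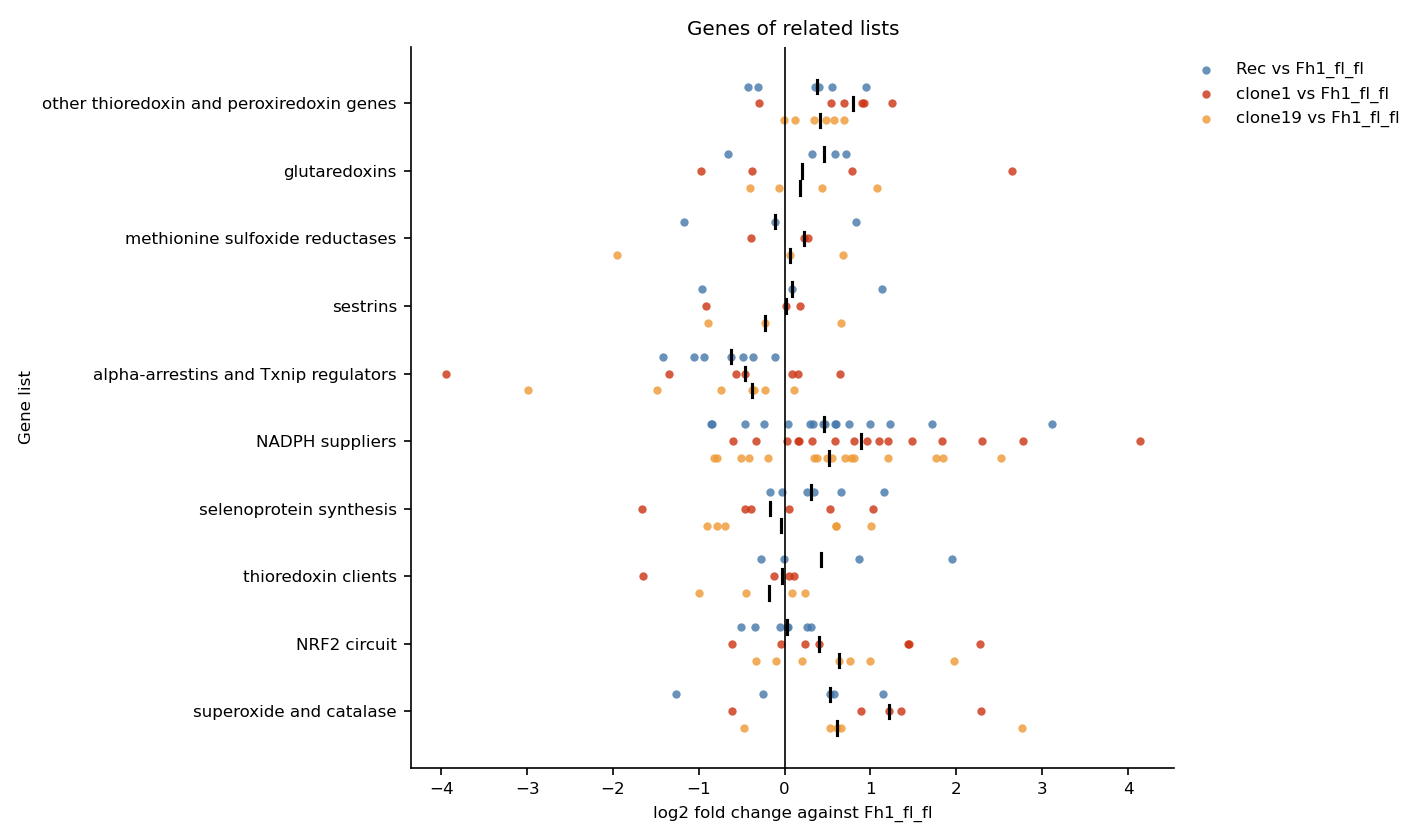
The log2 fold change of every tested gene in 10 related lists (x axis) for Rec, clone1 and clone19 against Fh1_fl_fl, a point per gene and a black tick at each median. In the NADPH list the median is 0.46 in Rec, 0.89 in clone1 and 0.52 in clone19, and single genes run up to 4.14.

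Genes listed for the supply of NADPH, the electron source of thioredoxin reductase, were more often higher than lower in each group. These counts are to be read against the shares of all tested genes given above. Some genes of the list, such as Nadk2, Tkt and Taldo1, encode enzymes that form no NADPH themselves. Of 16 tested, 11 rose and 4 fell in Rec, 13 were higher and 2 lower in clone1, and 11 were higher and 5 lower in clone19, with medians of 0.46, 0.89 and 0.52 beside -0.03, -0.03 and 0.0036 over all genes. Aldh1l2, the mitochondrial formyltetrahydrofolate dehydrogenase, had 133 ± 17.7 CPM in Rec, 269.8 ± 33.1 in clone1, 88.2 ± 5.37 in clone19 and 15.4 ± 1.75 in Fh1_fl_fl. Nadk2, the mitochondrial NAD kinase, had 66.1 ± 3.68 CPM in Rec, 301 ± 14.03 in clone1, 149 ± 10.48 in clone19 and 44.0 ± 3.21 in Fh1_fl_fl. Me1, cytosolic malic enzyme, had 255 ± 8.22 CPM in Rec, 1218 ± 53.4 in clone1, 573 ± 27.0 in clone19 and 248 ± 13.6 in Fh1_fl_fl. All 3 were highest in clone1, and Me1 did not pass in Rec (log2 fold change 0.04, adjusted p = 0.526). The dehydrogenase genes G6pdx, Pgd, Idh1 and Idh2 of the same list were higher in clone1 and lower in clone19. In Rec, G6pdx and Pgd were higher, and Idh1 and Idh2 were lower.

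In the NRF2 circuit, 2 of 7 genes rose and 2 fell in Rec against Fh1_fl_fl, and 5 rose and 1 fell in either clone, beside 33.4% of all tested genes higher in Rec, 38% in clone1 and 36.8% in clone19. Nfe2l2, the gene of NRF2 itself, had 119 ± 9.03 CPM in Rec, 258 ± 14.2 in clone1, 148 ± 9.13 in clone19 and 95.7 ± 2.09 in Fh1_fl_fl. Sqstm1, which encodes the KEAP1-binding autophagy receptor p62, had 591 ± 38.9 CPM in Rec, 1575 ± 126 in clone1, 980.3 ± 54.9 in clone19 and 576 ± 25.1 in Fh1_fl_fl. Maff, a small MAF protein that pairs with NRF2, had 36.0 ± 3.98 CPM in Rec, 146 ± 7.02 in clone1, 118 ± 5.18 in clone19 and 30.2 ± 1.33 in Fh1_fl_fl. All 3 were over 2-fold higher in clone1. The means of these 3 genes, named for the size of their change, ran in the order clone1, clone19, Rec and Fh1_fl_fl, as did those of Txnrd1 and Srxn1. Those of the other 4 genes of the list and of the other 7 tested members did not. In other lists, the means of Sod1, Glrx, Nadk2 and Me1 ran in that order too, and those of Cat and Aldh1l2 did not. The share of all tested genes in this order was not counted, so nothing particular to the NRF2 circuit is read from it.

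The enzymes that deal with superoxide and peroxide beside the peroxiredoxins had 3 of 5 genes higher and 2 lower in Rec, and 4 higher and 1 lower in each clone, beside 33.4% of all tested genes higher in Rec, 38% in clone1 and 36.8% in clone19. Sod1, cytosolic superoxide dismutase, had 220.2 ± 22.7 CPM in Rec, 389 ± 38.5 in clone1, 241 ± 14.4 in clone19 and 152 ± 7.03 in Fh1_fl_fl. Cat, the catalase of peroxisomes, had 39.0 ± 1.07 CPM in Rec, 216 ± 7.99 in clone1, 142 ± 5.14 in clone19 and 93.5 ± 5.50 in Fh1_fl_fl. It was over 2-fold higher in clone1 and over 2-fold lower in Rec. Sod3, the extracellular form, was low throughout, at 2.71 ± 0.87 CPM in Rec, 5.78 ± 2.14 in clone1, 8.13 ± 0.92 in clone19 and 1.15 ± 0.32 in Fh1_fl_fl.

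Among alpha-arrestins and the regulators of Txnip, 6 of 7 tested genes fell in Rec, 4 fell and 1 rose in clone1, and 6 fell in clone19, beside 37.4%, 40.5% and 36.1% of all tested genes lower in these groups. Arrdc1, an arrestin relative of Txnip involved in vesicle budding, had 46.3 ± 2.18 CPM in Rec, 27.9 ± 4.05 in clone1, 25.1 ± 3.72 in clone19 and 71.2 ± 5.78 in Fh1_fl_fl. Mlxipl, which encodes ChREBP, had 32 counts in total in Rec, 4 in clone1, 7 in clone19 and 103 in Fh1_fl_fl, too few for a firm fold. In selenoprotein synthesis, on which Txnrd1 depends, 4 of 6 genes rose in Rec, 2 were higher and 3 lower in clone1, and 3 were higher and 3 lower in clone19. Secisbp2, which binds the selenocysteine insertion element, had 10.3 ± 1.11 CPM in Rec, 3.58 ± 0.82 in clone1, 7.21 ± 0.51 in clone19 and 11.6 ± 0.75 in Fh1_fl_fl, and was over 2-fold lower in clone1. Of the 4 thioredoxin clients, 2 rose and 1 fell in Rec, 1 was lower in clone1, and 1 was higher and 2 lower in clone19; Rrm2, given above, was the only one over 2-fold in any of these comparisons.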

How the data were processed

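The authors deposited, per library, a table of whole-number read counts for each Ensembl gene, not normalized, and closing lines for reads outside genes. The submitters' processing notes name GRCm38 as the build, and DESeq 1.10.1, HTSeq 0.5.3p9 and TopHat2 2.0.4 as tools; their roles, the strand setting and the gene annotation release were not given in the sources used here. Those lines stayed out of library sizes and tests. Multiply aligned or otherwise non-unique reads took 28.83 to 40.29% of a library, those in no feature 3.28 to 6.73%, and those in several features at once 0.46 to 0.65%. Symbols, coordinates and exon lengths came from GENCODE M21 (37607 of 39179 genes matched), and promoters from RefSeq, which held 9 of the 10 members.

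The deposited counts went into edgeR 4.0.16 (R 4.3.3). The 12671 genes that passed filterByExpr were scaled by TMM and fitted with 1 quasi-likelihood model, a mean per group, over all 20 libraries. The 6 comparisons used glmQLFTest, and glmTreat at a log2 bound of 1 for calls over 2-fold, with Benjamini-Hochberg adjustment over all tested genes; the threshold was 0.05. RPKM is CPM per kilobase of merged exons, and ratios of RPKM were tested on the log2 scale by exact permutation. The fit was tested on simulated data. Groups and replicate numbers came from the sample titles. No pair of libraries within a group was identical. Alternatives were RLE size factors, plain library totals, no count filter, DESeq2 1.42.0, fits of the 2 compared groups, a replicate block, and each library left out in turn. The last, and plain totals for the summed level, were chosen for the ratios and sums after seeing the data.

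The members and lists were chosen with earlier results of these data known. All members are named. From each other list, up to 3 genes with the largest change are named, among those over 2-fold in Rec, clone1 or clone19 against Fh1_fl_fl. Prdx4, Txn2, Rrm1, Rrm2b, the targeted gene, some further NADPH genes and some markers are named beside them. Counting floors (3 counts) reflect counting error alone, as reads lacking molecular identifiers do not stand for separate molecules.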

Additional observations from a re-analysis of the deposited data

Results flagged for a closer look

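In 3 of 40 sets of 5 libraries, formed by the 10 members in the 4 groups, 1 library lay apart from the other 4 by Dixon's criterion; chance alone flags about 1 set in 20. The sets share libraries and are not independent. Txn1 was 272 CPM in clone1 replicate 1, with 207 to 219.5 CPM in the others, and this library was the highest of clone1 for every tested member. Prdx3 was 138 CPM in clone19 replicate 2, with 102 to 112 CPM in the others, and without this library Prdx3 was called lower in clone19 than in Fh1_fl_fl (log2 fold change -0.17, adjusted p = 0.0342). The same library was also the highest of clone19 for Txn1, Prdx1, Prdx2 and Prdx6. Prdx5 was 561 CPM in Fh1_fl_fl replicate 3, with 467 to 480.0 CPM in the others.

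The clones differed in their distance from Fh1_fl_fl for all 9 tested members, by the direct test of clone1 against clone19, which is the test of that difference. That test also called 65.1% of all tested genes, so nothing particular to the system is read from the count. Without clone19 replicate 3, 8 members were called, and Prdx2 was not (edgeR, adjusted p = 0.0697). On the log2 scale Srxn1 differed by 2.37, Prdx6 by 1.22, Prdx1 by 0.90, Txnip by 0.83, Prdx3 by 0.53 and Txnrd1 by 0.27, all higher in clone1. Prdx5 differed by -0.35, Txn1 by -0.28 and Prdx2 by -0.25, all lower in clone1. The adjusted p ran from 2.3e-20 for Srxn1 to 0.0156 for Prdx2.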

How the results depend on the processing

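Of the member fold changes under all alternatives, 1376 kept direction and side of the threshold, 14 lost a call, 5 gained one and 9 changed sign, none of the last past the threshold. With plain library totals the median of all tested genes shifted to -0.17 in clone1, -0.12 in clone19 and -0.17 in Rec against Fh1_fl_fl; Prdx1 in Rec then stood at -0.0197, Prdx5 in clone19 at -0.12, the summed peroxiredoxin level in Rec at -0.0332, and Prdx3 in clone19 was called at -0.21 (adjusted p = 0.0204). Without a count filter Prdx5 in clone19 stood at -0.0315. With single libraries left out it ran from -0.023 to 0.0693, and Txn1 in clone19 from -0.11 to 0.0224, and neither was called. DESeq2 called 1 member over 2-fold in Rec against clone1 in place of 2, without Txn1, and 2432 of 16972 genes in place of 2787 of 12671. Leaving out single libraries gave 6 to 8 changed members in Rec against Fh1_fl_fl, 6 to 7 in clone19, and 3 to 4 over 2-fold in clone1. The same omissions, with 12766 to 12802 genes tested, gave 8642 to 9155 changed genes in Rec and 9017 to 9471 in clone19. They gave 2722 to 2843 genes over 2-fold in clone1. Prdx2 in clone1 lay near the 2-fold bound by edgeR (adjusted p = 0.0547) and did not approach it by DESeq2 (adjusted p = 0.801). The Prdx2 difference between the clones was lost without clone1 replicate 5, clone19 replicate 2 or clone19 replicate 3, and Txnip was called lower in Rec than in clone19 without Rec replicate 1 (adjusted p = 0.0138) or clone19 replicate 5 (adjusted p = 0.0149). The cause was not tested. Of the counts over other lists, 41 moved by more than 1.5 times and 1519 did not.

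Deviations of same-numbered libraries of different groups correlated from -0.20 to 0.16 (median 0.02, 6 of 30 over 0.1). For differently numbered libraries of different groups, the correlations ran from -0.20 to 0.36 (median -0.003, 16 of 120 over 0.1). Of 20 libraries, 2 correlated best with their own number, so the numbers were not taken as pairs. With the number as a replicate block, Txnip in Rec against clone19 was -0.23 (adjusted p = 0.0309) in place of -0.22 (adjusted p = 0.0742), and no other member call changed.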
